A study of Homo sapiens with 24 samples.

Results

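Readthrough genes carry the names of 2 neighbouring genes joined by a hyphen. A gene of the deposited tables was taken as a readthrough gene when its name held a single hyphen and the text on each side was itself a gene of the same table. Of 26475 genes, 122 met that rule, and they named 242 parent genes. All 122 were described, of which 4 were at an expected count of 0 in all 24 libraries, 115 reached 3 or more in at least 1 library and 47 were above 0 in every library.

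A readthrough transcript arises when RNA polymerase passes the poly(A) site of one gene and continues into the next gene on the same strand. Splicing can then join an upstream exon of the first gene to an exon of the second, giving a chimeric RNA that may encode a fused protein or may be a target of nonsense-mediated decay. Because much of its sequence usually also lies in its parents, many short reads cannot tell it from them. RSEM, the program that made these tables, divides such reads among the candidates by a statistical model.

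The libraries came from 786-M1A and OS-LM1, metastatic lines of clear cell renal cell carcinoma with VHL mutations, and each is a single established line. In each line, 4 libraries carried sgNTC18, named as a non-targeting guide RNA, 4 carried shPAX8-1 and 4 carried shPAX8-2, both short hairpin RNAs against PAX8, a transcription factor of the renal epithelial lineage. The study's methods describe the hairpin vectors as doxycycline-inducible. A guide RNA control is not a hairpin control, so hairpin expression and any inducer cannot be told apart from PAX8 depletion in the comparison of shPAX8 with sgNTC18, and the comparison of both hairpins is the one within a construct type. The labels do not say that replicates were separate cultures, so the p-values measure the spread between these libraries, which may be technical.

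PAX8 itself was at 245 to 393 counts per 1000000 library counts (CPM) in the 8 sgNTC18 libraries and at 14.8 to 97.0 in the 16 shPAX8 libraries. Total expected counts were 17808799 to 37086335 per library with sgNTC18 and 11634419 to 52059375 with shPAX8. VIM, KRT18 and EPAS1, which mark these tumour cells, were expressed in both lines, with VIM at 3178 TPM or more. Of the leukocyte markers, CD3E was at 0 and PTPRC at 0.36 TPM or less, while CD68, a lysosomal protein that tumour cells can also make, was at 73.2 to 363 TPM. The endothelial genes PECAM1 and CDH5 were at 0.19 TPM or less.

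The exon junction between the parents is a stretch that a readthrough transcript shares with neither. Junctions of 9 readthrough genes that the results turn on are shown as 30 bases of the spliced transcript, 5′ to 3′, from GENCODE v44 on GRCh38. Lower case is the end of the upstream gene's exon, and capitals mark the start of the downstream exon.
TMEM189-UBE2V1: tctgcatcaccacagGAGTAAAAGTCCCTC
TGIF2-C20orf24: ctgtcagtgctgcaaGATGAATTTTTAGAT
COMMD3-BMI1: atggaacaattacagGATTTTTTATCAAGC
TMED7-TICAM2: aagagtggcctattgGCACAGTGTGGATAC
BCL2L2-PABPN1: agcagtgggggctggGAGCTGGAAGCTATC
NDUFC2-KCTD14: attttcctgaagaagGGGGTGACATTGGCC
MINOS1-NBL1: tgcacagcaacttctGGCTCTGGAGGCCAC
FPGT-TNNI3K: tattaattcactctgATGAATGGAAGAAAA
CORO7-PAM16: gacgaggacgagtggGCCAAGTACCTGGCC

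The TMEM189-UBE2V1 junction lay on the minus strand of chromosome 20, joined exon 5, which ended at 50127975, to exon 6, which started at 50096820, and removed an intron of 31154 bases inside the coding sequence. That of TGIF2-C20orf24 joined 36578966 to 36607715 on the plus strand of the same chromosome, also within coding sequence. The COMMD3-BMI1 junction shown ran from 22319018 to 22326431 on chromosome 10, and 4 upstream exons were annotated as joined to the same BMI1 exon. TMED7-TICAM2 (chromosome 5, minus strand) joined 115616318 to 115581197, and neither position was a splice site of an annotated parent transcript. On the remaining chromosomes, the positions were 23308199 and 23322181 for BCL2L2-PABPN1 (chromosome 14, plus), 78072998 and 78038758 for NDUFC2-KCTD14 (chromosome 11, minus), 19600971 and 19655012 for MINOS1-NBL1 (chromosome 1, plus), 74201410 and 74236102 for FPGT-TNNI3K (chromosome 1, plus), and 4355286 and 4343291 for CORO7-PAM16 (chromosome 16, minus). The MINOS1-NBL1 junction lay outside the annotated coding sequence, whereas the other 8 lay within it in at least 1 transcript.

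Across the family, GENCODE held transcripts for 103 readthrough genes and a junction between the parents for 94. Of 160 distinct junctions, 105 used a donor site of the upstream parent and an acceptor site of the downstream parent, in 67 genes. When each readthrough transcript was cut into all windows of 50 bases, a median of 10.5% of windows occurred in no transcript of the parents (range 0.996% to 89.3%, n = 103 genes). TMEM189-UBE2V1 was at the low end, with 46 of 2708 windows (1.70%) absent from TMEM189 and UBE2V1, whereas FPGT-TNNI3K was at 65.4%. The deposited transcripts were labelled protein-coding for 66 genes, non-coding for 51 and both for 5. By RefSeq positions on GRCh38, the parents of 114 readthrough genes lay apart, at a median of 6875.5 bases and within 10000 bases for 72, and those of 7 overlapped. The exception was C10orf32-ASMT, because the gene named ASMT lies on chromosome X and not beside C10orf32 on chromosome 10. By these positions the second parent taken from its name is not its neighbour, which limits its locus share and its comparison with parents.

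Most readthrough genes were minor products of their locus. Their median level, averaged over the 24 libraries, was 1.40 transcripts per 1000000 transcripts (TPM), a unit corrected for transcript length, against 6.09 for the parents, and 64 reached 1 TPM and 22 reached 10 TPM. The readthrough share of a locus was taken as its TPM divided by the summed TPM of the readthrough and both parents. The median share was 6.86%, with 58 genes under 5% and 4 over 50%. Together the 122 genes held 0.0637 to 0.0746% of all TPM in sgNTC18 libraries and 0.0707 to 0.105% in shPAX8 libraries.

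The most abundant was SLMO2-ATP5E, at a mean of 133 TPM, whose parents encode a mitochondrial lipid transfer protein and the epsilon subunit of ATP synthase. It was followed by BCL2L2-PABPN1 (74.3 TPM), which joins an anti-apoptotic BCL2 relative to the nuclear poly(A)-binding protein. TGIF2-C20orf24 came next at 45.0 TPM, and TGIF2 encodes a homeobox repressor of TGFβ-responsive genes. RPL17-C18orf32, COMMD3-BMI1, TMED7-TICAM2, NDUFC2-KCTD14, TMEM189-UBE2V1, TMEM256-PLSCR3 and C7orf55-LUC7L2 filled the other places among the 10 highest, from 36.5 down to 26.0 TPM.

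In 8 genes the readthrough was listed above both parents, and in 58 above one of them. BCL2L2-PABPN1 was the clearest case, at 74.3 TPM against 5.0 for BCL2L2 and 4.18 for PABPN1, and it took 88.9% of its locus. Of its 2369 windows, however, only 202 (8.53%) were absent from both parents. How shared reads were divided between this readthrough and its parents was not tested. PABPN1 binds the poly(A) tail of nearly every mRNA. GPR75-ASB3 stood at 12.2 TPM against 2.49 and 2.97, and PHOSPHO2-KLHL23 at 2.59 against 1.34 and 0.108. The others were BIVM-ERCC5, C7orf55-LUC7L2, ISY1-RAB43, TNFAIP8L2-SCNM1 and TVP23C-CDRT4.

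**Figure D1:**
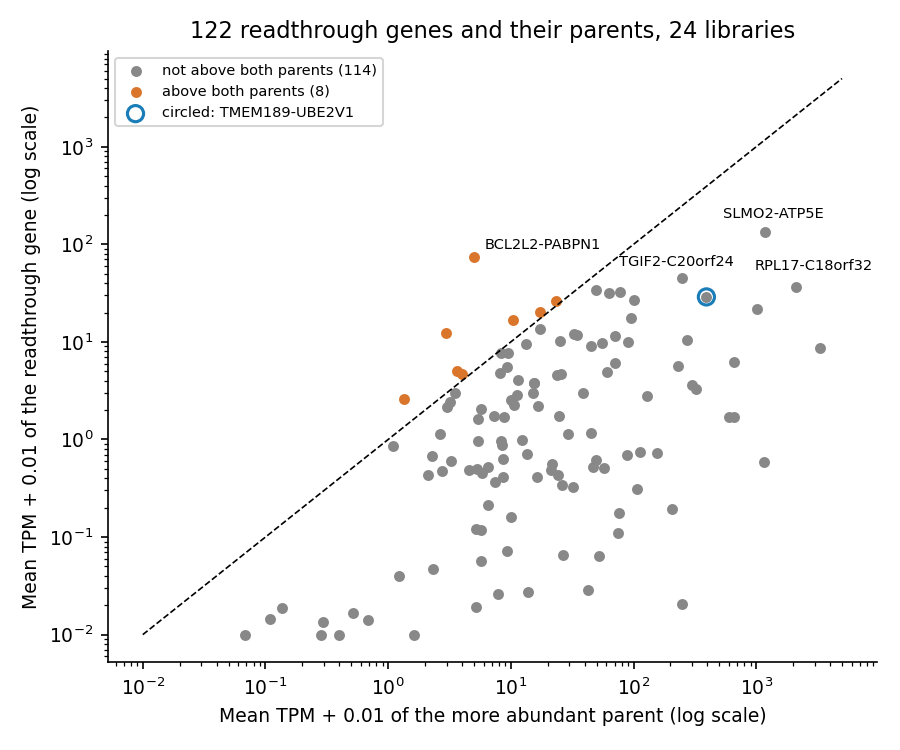
Each point is 1 of 122 readthrough genes, with its mean TPM over 24 libraries on the y axis and that of its more abundant parent on the x axis, both after adding 0.01 and on log scales. The dashed line marks equal levels, and 8 genes lie above it, with BCL2L2-PABPN1 at 74.3 TPM farthest from it.

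The counts also showed that most values of these genes held at least some divided reads. An expected count is a whole number when every read was assigned to a single gene. Any divided read can make it fractional, so whole counts do not measure how much of the evidence was unique to a gene. Per library, a median of 1.13% of the readthrough counts above 0 were whole to within 0.005 (range 0 to 3.70%), against 17.4% for the parents and 58.2% for all genes. Replicates varied more as well: for mean counts of 50 to 1000 in a group, the median coefficient of variation was 25.8% for readthrough genes, 15.4% for parents and 13.0% for all genes. A readthrough gene was at 0 in one replicate while another replicate of the same group held 20 or more in 106 of 507 gene and group pairs (20.9%), in 45 genes, against 3.27% for parents and 0.507% for all genes. The part of read division in the levels above and in the values below was not tested, because the reads were not analysed here.

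One readthrough gene separated the constructs completely. TMEM189-UBE2V1 was listed at 0 in all 8 sgNTC18 libraries and above 0 in all 16 shPAX8 libraries, in both lines and with both hairpins. TMEM189, now named PEDS1, encodes the desaturase that makes plasmalogens, and UBE2V1 encodes a ubiquitin-conjugating enzyme variant that works with UBE2N to build lysine-linked ubiquitin chains. Of 26475 genes, it was the only one at 0 in every sgNTC18 library and at 3 or more in every shPAX8 library, and no gene showed the reverse.

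In 786-M1A, the expected counts of TMEM189-UBE2V1 were 1277.5, 1817.96, 1155.01 and 1108.63 with shPAX8-1. With shPAX8-2 they were 861.62, 1419.81, 746.69 and 1332.52. In OS-LM1, the counts were 1866.43, 912.25, 1296.2 and 1904.23 with shPAX8-1 and 944.08, 1608.37, 3550.81 and 3686.58 with shPAX8-2. The lowest shPAX8 library thus lay far from the sgNTC18 libraries, which did not overlap with it in either line. Scaled to library size, the mean was 70.8 ± 10.5 and 69.1 ± 17.3 CPM (SD, n = 4 each) for shPAX8-1 and shPAX8-2 in 786-M1A, and 65.8 ± 19.6 and 88.5 ± 23.4 CPM in OS-LM1. Neither line showed a difference between hairpins by edgeR's quasi-likelihood test (log2 difference 0.04, SE 0.18, adjusted p = 0.878 in 786-M1A, and −0.46, SE 0.24, adjusted p = 0.190 in OS-LM1).

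Because the controls were at 0, the fold change is a lower bound. Taking 3 counts as the limit that a count of 0 allows, the largest such limit was 0.166 CPM in an sgNTC18 library of 786-M1A and 0.0904 CPM in OS-LM1, so the mean of the shPAX8 libraries was at least 422-fold higher in 786-M1A and at least 854-fold higher in OS-LM1. The shPAX8 library with the lowest value was still at least 296-fold and 534-fold above these limits. Such limits cover counting error only and not the division of reads. The fitted log2 fold changes, 13.42 and 14.08, depend on the prior count and are no bounds, and their p-values are not given, since the gene passed the filter on low counts through the shPAX8 libraries.

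The parents did not show that pattern. TMEM189 was at 123 ± 19.1 CPM with sgNTC18, 96.2 ± 26.7 with shPAX8-1 and 120 ± 15.7 with shPAX8-2 in 786-M1A, with overlapping groups (log2 fold change −0.18, SE 0.15, adjusted p = 0.297). UBE2V1 was at 351 ± 17.8, 319 ± 46.5 and 322 ± 23.8 CPM in the same groups (−0.11, SE 0.09, adjusted p = 0.290). In OS-LM1 both parents rose, TMEM189 by a log2 fold change of 0.30 (SE 0.12, adjusted p = 0.0318) and UBE2V1 by 0.82 (SE 0.09, adjusted p = 9.74e-08), the latter from 412 ± 17.7 to 791 ± 87.6 and 677 ± 90.4 CPM. Summed over the readthrough and both parents, the locus stood at 474 ± 31.5, 487 ± 26.3 and 511 ± 5.73 CPM in 786-M1A and at 489 ± 23.2, 939 ± 112 and 878 ± 108 CPM in OS-LM1. These sums were not tested. The readthrough share went from 0 to 11% ± 2.46 in 786-M1A and to 6.38% ± 1.63 in OS-LM1 (SD, n = 8 shPAX8 libraries), which the absence from all controls fixes, so no test is given.

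TMEM189 had whole counts, such as 2418 and 2533, in 8 of 8 sgNTC18 libraries, but in only 1 of 16 shPAX8 libraries. These whole counts are not separate evidence on how the reads were divided. Where the readthrough was absent, no TMEM189 read was divided with it, so whole counts can follow from that absence alone. UBE2V1 counts were whole in none of the 24. The transcript given for TMEM189-UBE2V1 and its length were the same in every file. Whether the readthrough RNA or only the assignment of shared reads differed between sgNTC18 and shPAX8 libraries was not tested, since junction reads were not analysed here.

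**Figure D2:**
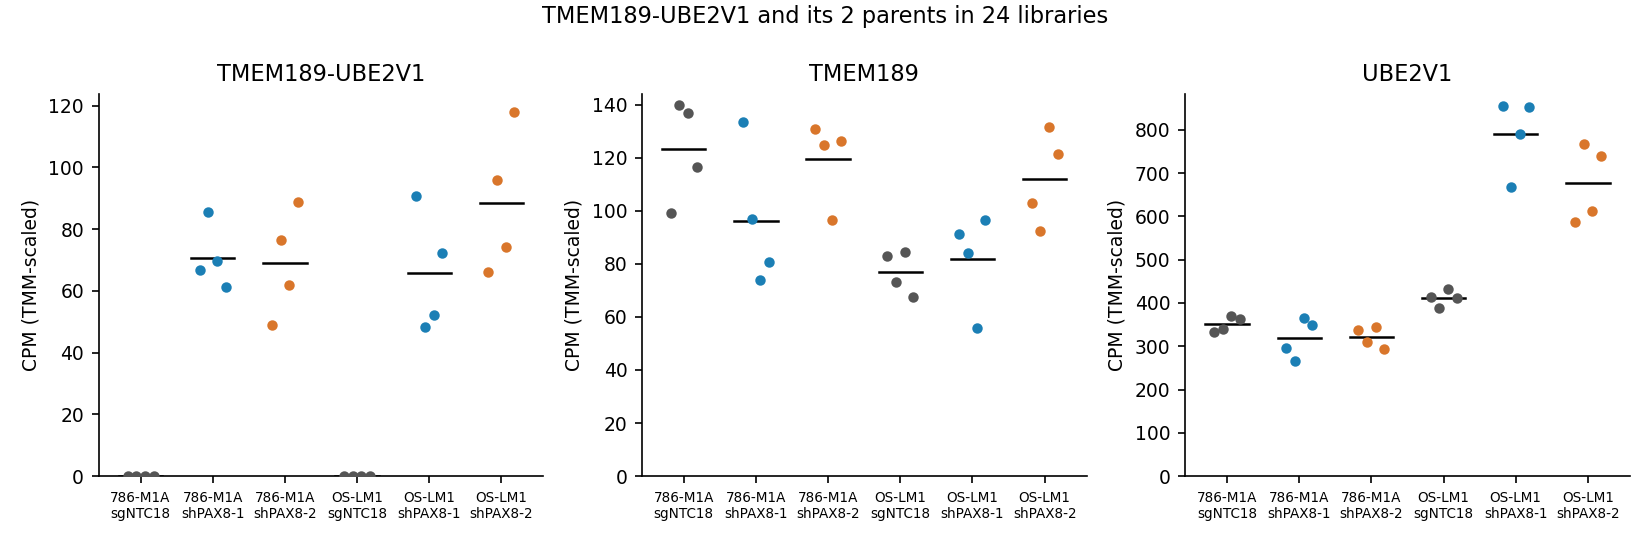
CPM of TMEM189-UBE2V1, TMEM189 and UBE2V1 in 24 libraries (points, 4 per group), with bars at the group means. The readthrough sits at 0 in the 8 sgNTC18 libraries and between 48.3 and 118 CPM in the 16 shPAX8 libraries, while the parents overlap between constructs in 786-M1A.

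Other readthrough genes absent from the controls were present in part of the shPAX8 libraries. In all, 7 of 122 were at 0 in every sgNTC18 library and reached 3 in at least 1 shPAX8 library, a pattern that 1.43% of all genes showed. Apart from TMEM189-UBE2V1, the highest was C8orf44-SGK3, which joins an open reading frame to a serum and glucocorticoid regulated kinase, and it was above 0 in 9 of 16 shPAX8 libraries, with a highest count of 174.37. PRR5-ARHGAP8 reached 29.61 and was above 0 in 3 libraries, all of 786-M1A with shPAX8-1. ARHGAP19-SLIT1 reached 25.09 and was at 3 or more in 5 libraries. The rest, TRIM6-TRIM34, INS-IGF2 and LY75-CD302, had highest counts of 8.67, 6 and 3.52. The reverse pattern, 0 in all shPAX8 libraries, held for 2 readthrough genes (0.427% of all genes): IPO11-LRRC70, with 49.68 and 25.95 in 2 sgNTC18 libraries of 786-M1A, and KLRC4-KLRK1, with 7.78 in 1 of OS-LM1.

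Absence was also counted within each line. In 786-M1A, 11 readthrough genes were at 0 in the 4 sgNTC18 libraries and at 3 or more in an shPAX8 library (1.63% of all genes), and 1 showed the reverse (0.449%). In OS-LM1 the numbers were 6 (1.53% of all genes) and 3 (0.631%). CORO7-PAM16, which joins a Golgi coronin to a subunit of the mitochondrial import motor, was at 0 in the sgNTC18 libraries of 786-M1A and at 0, 43.62, 25.58 and 30.05 with shPAX8-1 and 48.39, 23.2, 0 and 0.35 with shPAX8-2. In OS-LM1 the same gene was at 91.3 to 185.58 in the controls. MIA-RAB4B was at 0 in the 786-M1A controls and at 9.5 to 48.58 in 7 of the 8 shPAX8 libraries, with RAB4B, a small GTPase of recycling endosomes, falling by 3.49 on the log2 scale (SE 0.36, adjusted p = 4.90e-07). Against 3 counts in the controls, the mean of the shPAX8 libraries was at least 17.3-fold higher for C8orf44-SGK3, 7.23-fold for MIA-RAB4B and 7.0-fold for CORO7-PAM16, and each of the 3 had shPAX8 libraries at or near 0.

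**Figure D3:**
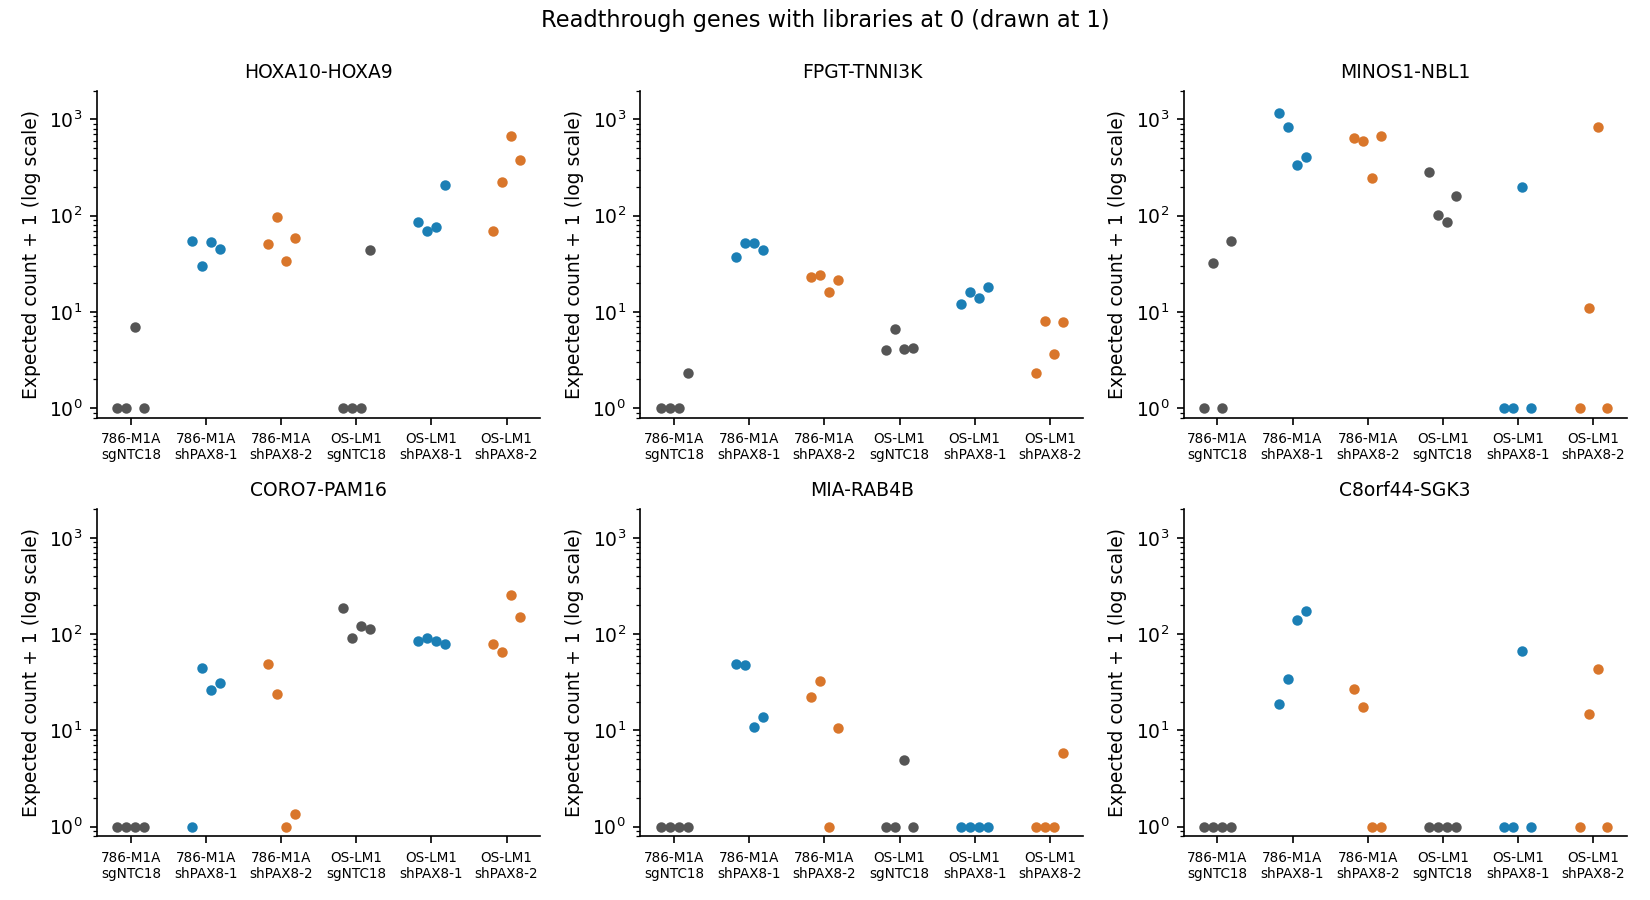
Expected count + 1 on a log scale for 6 readthrough genes in 24 libraries, with libraries at 0 drawn at 1. CORO7-PAM16, MIA-RAB4B and C8orf44-SGK3 are at 0 in the 4 sgNTC18 libraries of 786-M1A, and MINOS1-NBL1 is at 0 in 2 of them and in 5 of 8 shPAX8 libraries of OS-LM1.

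The comparison of shPAX8 with sgNTC18 asked how the readthrough genes responded in each line. In 786-M1A, 89 of 122 passed the filter on low counts, of which 28 were higher and 18 lower at an adjusted p under 0.05, while 35.7% of all genes tested were higher and 34.7% lower. Their median log2 fold change was 0.21, against 0.04 for all genes. In OS-LM1, 88 were tested, and 23 were higher and 22 lower, against 36.4% and 37.1% of all genes, with medians of −0.09 and −0.01. The readthrough genes were therefore called at rates near or below the background in both lines. Their estimates were also less precise, with a median SE of 0.33 against 0.14 in 786-M1A and 0.31 against 0.11 in OS-LM1. Of the genes tested, 8 in 786-M1A and 4 in OS-LM1 had a mean count under 3 in one construct, mostly in sgNTC18 (7 and 3), and so entered the test through the group in which they were high.

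A total of 24 of the 83 genes tested in both lines were called in both, 12 higher in both, 10 lower in both and 2 in opposite directions. The share with one direction was 91.7%, against 76.9% over the whole table, where 7437 of 13737 genes tested in both lines were called in both. TMEM189-UBE2V1, HOXA10-HOXA9 and FPGT-TNNI3K are counted here as higher in both. In 786-M1A they passed the filter through the shPAX8 libraries, as TMEM189-UBE2V1 did in OS-LM1, which set their direction there. The 91.7% therefore describes these genes and supports nothing. Among those higher in both were TMEM189-UBE2V1, TGIF2-C20orf24, COMMD3-BMI1, SLMO2-ATP5E, TMED7-TICAM2, C7orf55-LUC7L2 and HOXA10-HOXA9. Lower in both were MSH5-SAPCD1, NDUFC2-KCTD14, BIVM-ERCC5, ABHD14A-ACY1 and 6 others. C10orf32-ASMT and PHOSPHO2-KLHL23 went opposite ways.

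TGIF2-C20orf24 rose while its abundant parent fell. Its counts in 786-M1A were 147.36, 30.8, 110.97 and 28.04 with sgNTC18, 192.84, 318.08, 233.01 and 196.15 with shPAX8-1, and 81.42, 138.3, 298.69 and 153.38 with shPAX8-2, so the 2 highest control libraries overlapped with the lower shPAX8-2 libraries. In OS-LM1 they were 345.5, 145.55, 123.64 and 145.56 in the controls and 736.36 to 2816.98 in the 8 shPAX8 libraries, with no overlap. The log2 fold change was 1.93 in 786-M1A (SE 0.44, adjusted p = 0.00115) and 3.56 in OS-LM1 (SE 0.47, adjusted p = 6.52e-05). C20orf24, also known as RAB5IF, fell by 1.38 (SE 0.10, adjusted p = 1.42e-08) and by 0.74 on the log2 scale (SE 0.10, adjusted p = 2.83e-06). TGIF2 fell by 0.37 in 786-M1A (SE 0.12, adjusted p = 0.00918) and was not called in OS-LM1 (0.10, SE 0.09, adjusted p = 0.354). The readthrough share of the locus went from 1.43% ± 1.10 to 11.7% ± 5.63 in 786-M1A and from 2.32% ± 1.25 to 30.7% ± 12.6 in OS-LM1 (SD, n = 4 and 8, two-sided exact permutation test, p = 0.00404 in each line, the smallest p that 8 against 4 can give), and by this measure the groups did not overlap in either line.

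MSH5-SAPCD1 showed the largest fall in OS-LM1. MSH5 is a MutS homologue of meiotic recombination, and this readthrough is annotated as non-coding. Counts in 786-M1A were 862.58, 747.28, 950.83 and 745.32 with sgNTC18 and 33.71 to 202.26 in the 8 shPAX8 libraries. In OS-LM1 they were 343.45 to 651.85 and 7.23 to 43.23. The groups did not overlap in either line, and the gene fell by 2.32 (SE 0.29, adjusted p = 4.21e-06) and by 3.74 on the log2 scale (SE 0.28, adjusted p = 7.52e-09), more in OS-LM1 than in 786-M1A (line dependence −1.38, SE 0.47, adjusted p = 0.0142). MSH5 rose in 786-M1A (1.60, SE 0.24, adjusted p = 2.78e-05) and fell by 1.32 in OS-LM1 (SE 0.18, adjusted p = 2.24e-06). The readthrough share fell from 70.8% ± 10.7 to 13.9% ± 7.93 and from 45.5% ± 7.49 to 15.3% ± 9.99 (SD, n = 4 and 8). The gene was named for its change in OS-LM1, so the share test is given for 786-M1A (exact permutation test, n = 4 and 8, p = 0.00404).

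COMMD3-BMI1 joins a COMMD protein to a core subunit of Polycomb repressive complex 1. Its counts in 786-M1A were 392.87 to 754.13 with sgNTC18, 916.46 to 2147.45 with shPAX8-1 and 573.71 to 742.41 with shPAX8-2. The counts overlapped for shPAX8-2, whose libraries were smaller, whereas CPM did not, at 24.8 ± 4.42, 82.0 ± 35.7 and 43.0 ± 3.81. In OS-LM1 the CPM were 56.6 ± 7.23, 108 ± 22.5 and 78.2 ± 23.5, and the shPAX8-2 libraries overlapped with the controls. The gene rose by 1.28 (SE 0.22, adjusted p = 9.89e-05) and 0.69 (SE 0.17, adjusted p = 0.00265), while BMI1 fell by 0.95 in OS-LM1 (SE 0.16, adjusted p = 4.35e-05) and was not called in 786-M1A (−0.28, SE 0.19, adjusted p = 0.194). Its locus share rose from 19.6% ± 2.70 to 42.7% ± 7.82 and from 27.1% ± 2.14 to 38.9% ± 6.47 (exact permutation test, n = 4 and 8, p = 0.00404 in each line).

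TMED7-TICAM2 joins a p24 cargo receptor of the early secretory pathway to an adaptor of Toll-like receptor 4. It was at 36.1 ± 4.75 CPM with sgNTC18, 146 ± 32.8 with shPAX8-1 and 104 ± 4.71 with shPAX8-2 in 786-M1A, and at 36.6 ± 4.10, 53.4 ± 3.78 and 47.2 ± 8.10 in OS-LM1. The rise was 1.79 (SE 0.14, adjusted p = 2.04e-08) and 0.45 (SE 0.10, adjusted p = 0.000653), a difference between lines of −1.31 (SE 0.17, adjusted p = 2.41e-07). TMED7 behaved in the other order, with 0.24 in 786-M1A (SE 0.22, adjusted p = 0.327) and a rise of 0.98 in OS-LM1 (SE 0.10, adjusted p = 6.64e-08). The readthrough share consequently went up in 786-M1A, from 23.6% ± 0.637 to 49.5% ± 4.80, and down in OS-LM1, from 21.4% ± 1.04 to 16.3% ± 1.37 (exact permutation test, n = 4 and 8, p = 0.00404 each), with no overlap in either.

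SLMO2-ATP5E, the most abundant readthrough, was at 38.6 ± 2.59, 160 ± 30.0 and 85.7 ± 7.45 CPM with sgNTC18, shPAX8-1 and shPAX8-2 in 786-M1A and at 37.4 ± 3.27, 72.2 ± 12.9 and 65.3 ± 12.9 in OS-LM1. It rose by 1.62 (SE 0.12, adjusted p = 1.14e-08) and 0.87 (SE 0.12, adjusted p = 2.28e-06). In 786-M1A the share of its locus went from 5.87% ± 0.461 to 13.9% ± 1.62 (exact permutation test, n = 4 and 8, p = 0.00404). In OS-LM1 SLMO2 and ATP5E rose too, by 1.26 and 0.77, and the share was 7.62% ± 1.07 and 7.96% ± 1.05 (p = 0.582 by the same exact permutation test, n = 4 and 8). NDUFC2-KCTD14, which begins with a subunit of respiratory complex I, fell by 0.72 in 786-M1A (SE 0.16, adjusted p = 0.000741) and by 1.00 in OS-LM1 (SE 0.08, adjusted p = 2.48e-09). Its counts in OS-LM1 were 3089.44 to 3815.41 in the controls and 677.78 to 2551.61 in the shPAX8 libraries, without overlap.

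Several genes rose from very low control levels. HOXA10-HOXA9, which spans a pair of homeobox genes, was at 0, 0, 5.93 and 0 in the 786-M1A controls and at 29.01 to 95.65 in the shPAX8 libraries, and at 0, 0, 0 and 42.84 against 68.42 to 667.97 in OS-LM1. The groups did not overlap, and the fitted changes were 5.49 (SE 0.56) and 4.50 (SE 0.90). In 786-M1A the gene passed the filter on low counts through the shPAX8 libraries, as did FPGT-TNNI3K, so no p is given there. HOXA10 fell by 1.01 in 786-M1A and rose by 1.12 in OS-LM1, whereas HOXA9 rose by 0.47 and 0.43. FPGT-TNNI3K, which joins a fucose-phosphate guanylyltransferase to a cardiac kinase, was at 0, 0, 0 and 1.33 in the 786-M1A controls and at 15.19 to 51.59 in the shPAX8 libraries. Its share of the locus went from 0.275% ± 0.551 to 33.8% ± 7.57 (SD, n = 4 and 8). In OS-LM1 the counts were 2.98 to 5.62 and 1.31 to 16.97 and overlapped (1.56, SE 0.50, adjusted p = 0.00914).

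MINOS1-NBL1, which joins a gene of mitochondrial cristae to a BMP antagonist, rose in 786-M1A (5.24, SE 0.75, adjusted p = 4.04e-05). The controls were at 0, 31.23, 0 and 53.13 and the shPAX8 libraries at 243.21 to 1174.65, without overlap. In OS-LM1 the controls were at 84.82 to 281.24, and the shPAX8 libraries at 0, 0, 196.37 and 0 with shPAX8-1 and at 0, 10.04, 841.57 and 0 with shPAX8-2 (−0.50, SE 1.36, adjusted p = 0.756). The difference between lines was −5.68 (SE 1.68, adjusted p = 0.00714). SAA2-SAA4, which spans acute-phase serum amyloid genes, was at 0, 0, 1.97 and 0 in the OS-LM1 controls and at 4.52 to 30.04 in the shPAX8 libraries, through which it passed the filter, and SAA2 rose by 1.74 (SE 0.21, adjusted p = 4.87e-07). DYX1C1-CCPG1 was at 82.13, 0, 60.66 and 37.51 in the 786-M1A controls, through which it passed the filter, and at 8.94 or less in the shPAX8 libraries, while CCPG1, a receptor for autophagy of the endoplasmic reticulum, rose by 1.09 (SE 0.17, adjusted p = 3.45e-05). BCL2L2-PABPN1, by comparison, moved little, by 0.21 in 786-M1A (SE 0.08, adjusted p = 0.0336) and 0.11 in OS-LM1 (SE 0.07, adjusted p = 0.139).

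**Figure D4:**
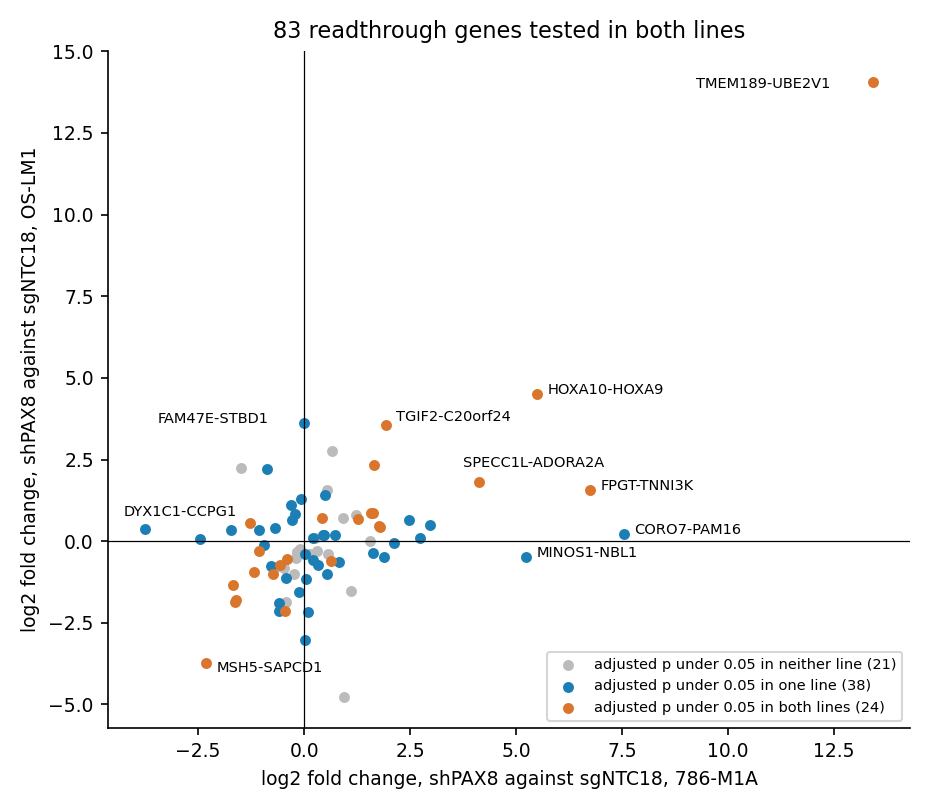
Fitted log2 fold changes of shPAX8 against sgNTC18 in 786-M1A (x axis) and OS-LM1 (y axis) for the 83 readthrough genes tested in both, coloured by whether the adjusted p was under 0.05 in neither, one or both lines. TMEM189-UBE2V1 lies at 13.42 and 14.08, values that depend on the prior count because its controls are at 0, and MSH5-SAPCD1 is the lowest of the 24 genes called in both.

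Parents did not always move with the readthrough. In 786-M1A, a parent was also higher for 6 of the 28 readthrough genes that were higher and no parent was for 22, and in 3 (CORO7-PAM16, ISY1-RAB43 and TGIF2-C20orf24) both parents were lower. Of the 18 that were lower, 7 had a parent that was lower too, and both parents of DYX1C1-CCPG1 and ZNF625-ZNF20 were higher. In OS-LM1 a parent was higher for 14 of the 23 higher readthrough genes and lower for 16 of the 22 lower ones, and whether the lines differ in this was not tested. Over all parents tested, 53 of 194 were higher and 75 lower in 786-M1A, and 68 of 201 were higher and 76 lower in OS-LM1. In OS-LM1, both parents opposed the readthrough for RPS10-NUDT3, SPECC1L-ADORA2A and SYS1-DBNDD2. SPECC1L-ADORA2A also rose in 786-M1A, where its parents were not both called lower. There it was at 0, 0, 17.52 and 36.66 in the controls and at 118.47 to 251.14 in the shPAX8 libraries, a rise of 4.13 (SE 0.52, adjusted p = 4.63e-06).

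Shares of the locus were tested for 38 named readthrough genes, in 136 exact permutation tests (two-sided), of which 45 gave an unadjusted p under 0.05. Most of these genes were named for absence from a construct or for large changes in the same comparisons, so the counts describe them and support nothing. For shPAX8 against sgNTC18, the share was higher at that threshold in 11 and lower in 6 of 35 genes in 786-M1A and higher in 9 and lower in 5 of 33 in OS-LM1. Beyond the genes above, MINOS1-NBL1 went from 0.549% ± 0.663 to 22.2% ± 9.70 in 786-M1A (SD, n = 4 and 8). TMEM256-PLSCR3, whose second parent encodes a mitochondrial phospholipid scramblase, went from 24.8% ± 1.39 to 15.1% ± 5.65 in the same line (p = 0.00404 by the same exact permutation test). NDUFC2-KCTD14 went from 52.4% ± 2.32 to 40.1% ± 8.15 in OS-LM1 (exact permutation test, n = 4 and 8, p = 0.00404). RPL17-C18orf32, named for a protein of the large ribosomal subunit, went down from 1.63% ± 0.202 to 0.695% ± 0.371 in 786-M1A (p = 0.00404) and up from 1.78% ± 0.204 to 2.72% ± 0.677 in OS-LM1 (p = 0.0444, exact permutation tests, n = 4 and 8). BCL2L2-PABPN1 took 84.1% ± 1.68 and 88.6% ± 2.08 of its locus with sgNTC18 and shPAX8 in 786-M1A (exact permutation test, n = 4 and 8, p = 0.0121).

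**Figure D5:**
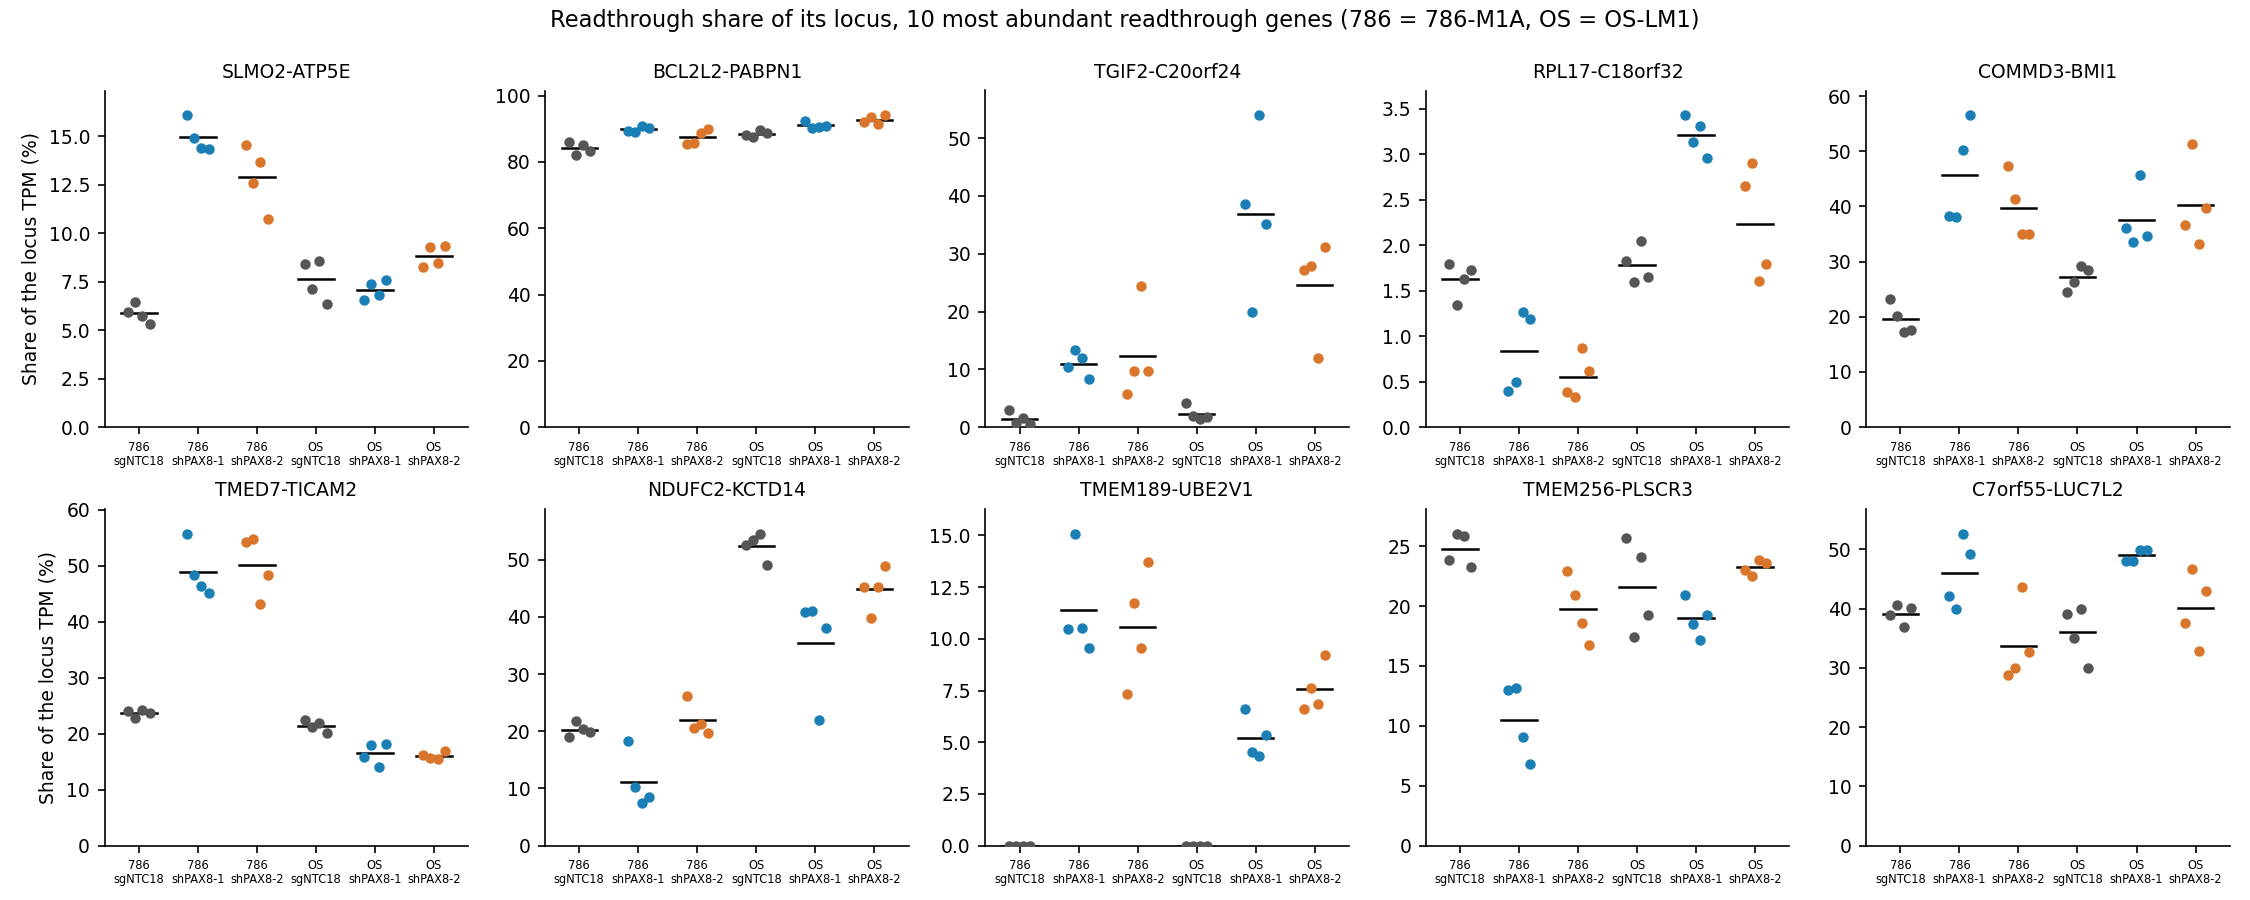
Share of the locus TPM (%) taken by each of the 10 most abundant readthrough genes in 24 libraries (points), with bars at the means of 4 libraries and a separate y axis from 0 per gene. TMED7-TICAM2 lies between 43.1% and 55.7% in the shPAX8 libraries of 786-M1A and between 14.1% and 18.2% in those of OS-LM1, and BCL2L2-PABPN1 stays at 82.2% or more in every library.

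Both hairpins target PAX8, and its transcript differed between them in 786-M1A (log2 difference of shPAX8-1 minus shPAX8-2 −1.18, SE 0.15, adjusted p = 4.01e-05) whereas no difference was called in OS-LM1 (−0.05, SE 0.12, adjusted p = 0.797). With shPAX8-1 in 786-M1A, PAX8 was at 22.9 and 21.9 CPM in replicates 1 and 2 and at 15.2 and 14.8 in replicates 3 and 4. With shPAX8-2 it was at 41.4 and 45.5 against 42.6 and 40.0. Between hairpins in 786-M1A, 8 of 89 readthrough genes were higher with shPAX8-1 and 10 lower, against 24.2% and 22.9% of all genes. Without replicate 1 of shPAX8-1 these became 13 and 17, and the number lower fell to 5 or 6 without replicate 3 or 4 of shPAX8-1 or replicate 1 or 4 of shPAX8-2. In OS-LM1, 6 of 88 were higher and 6 lower, against 12.4% and 16.7%, and 3 were higher without replicate 3 of shPAX8-2. The percentages of all genes belong to the full fits, and none is given here for the fits without a library.

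In 786-M1A, COMMD3-BMI1 was higher with shPAX8-1 by 0.93 (SE 0.24, adjusted p = 0.00615), SLMO2-ATP5E by 0.90 (SE 0.13, adjusted p = 8.62e-05) and C7orf55-LUC7L2 by 0.79 (SE 0.14, adjusted p = 0.000632). LUC7L2 is a component of the U1 small nuclear ribonucleoprotein, and with shPAX8-2 its readthrough stood at 37.4 ± 6.24 CPM, against 37.4 ± 2.30 in the controls. TMEM256-PLSCR3 was lower by 1.14 (SE 0.22, adjusted p = 0.00106), and C8orf44-SGK3, JMJD7-PLA2G4B, RTEL1-TNFRSF6B and STX16-NPEPL1 also differed, each losing its call when at least 1 single library was left out. In OS-LM1, BLOC1S1-RDH5 was higher with shPAX8-1 by 1.40 (SE 0.19, adjusted p = 1.75e-05), and its locus share was 16.7% ± 2.70 against 6.78% ± 1.52 (SD, n = 4 each). FPGT-TNNI3K and NT5C1B-RDH14 were higher, by 1.77 (SE 0.52, adjusted p = 0.0140, lost without replicate 3 of shPAX8-2) and 1.24 (SE 0.34, adjusted p = 0.0101). DYX1C1-CCPG1 was at 0, 0, 6.8 and 18.52 with shPAX8-1 and at 28.44 to 225.91 with shPAX8-2, and PTGES3L-AARSD1 was lower by 2.32 with shPAX8-1 (SE 0.58, adjusted p = 0.00998). Shares differed at an unadjusted p under 0.05 for 3 of 35 genes in 786-M1A and 11 of 33 in OS-LM1, among them TMEM189-UBE2V1 in OS-LM1 (5.20% ± 1.03 with shPAX8-1 and 7.56% ± 1.18 with shPAX8-2, exact permutation test, n = 4 each, p = 0.029, the smallest p that 4 against 4 can give). With TMEM189 alone in the denominator that difference turned to 0.521 percentage points higher with shPAX8-1 (exact permutation p = 0.914), and with expected counts in place of TPM it was −3.05 (exact permutation p = 0.0571).

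The lines themselves differed. Among sgNTC18 libraries, 18 of 95 readthrough genes were higher in OS-LM1 and 18 lower, where 32% and 31% of all genes were. NDUFC2-KCTD14 was at 98.2 ± 6.08 CPM in OS-LM1 and 25.0 ± 1.95 in 786-M1A (log2 difference 1.98, SE 0.15, adjusted p = 1.22e-11), while NDUFC2 was not called (−0.15, SE 0.15, adjusted p = 0.403). COMMD3-BMI1 was higher by 1.19 (SE 0.23, adjusted p = 8.62e-05) and so was BMI1, by 0.89. TSNAX-DISC1 was at 66.68 to 92.8 counts in OS-LM1, and in 786-M1A at 6.87 in replicate 1 and at 0 in the others (fitted difference 4.92, SE 0.72). No p is given for it, since it passed the filter through groups in which it was high. TNFSF12-TNFSF13, which joins the cytokines TWEAK and APRIL, was at 113.98 to 241.4 in OS-LM1 and at 0 in 786-M1A, and TNFSF12 was likewise higher in OS-LM1 (7.99, SE 0.42, adjusted p = 4.18e-14). CORO7-PAM16 was present in OS-LM1 and at 0 in 786-M1A, although both of its parents were lower in OS-LM1, by 1.34 and 0.73. SAA2-SAA4 was lower in OS-LM1 (fitted −3.60, SE 0.92), where only replicate 3 of the controls was above 0. No p is given for it either, because it passed the filter through other groups. SEPT5-GP1BB was at 0 in the OS-LM1 controls and at 5.39 to 39.57 in those of 786-M1A, a call lost without the highest library.

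The response to shPAX8 differed between lines for 42 of 95 readthrough genes. It was higher in OS-LM1 for 18 (29.9% of all genes) and lower for 24 (28.8%), and the median difference was −0.40 on the log2 scale against 0.00 for all genes. SLMO2-ATP5E rose less in OS-LM1 (−0.72, SE 0.17, adjusted p = 0.000719), whereas TGIF2-C20orf24 rose more (1.67, SE 0.66, adjusted p = 0.0359). BLOC1S1-RDH5 fell by 1.72 in 786-M1A (SE 0.34, adjusted p = 0.000315) and was not called in OS-LM1 (0.34, SE 0.16, adjusted p = 0.0604), a difference of 2.09 (SE 0.39, adjusted p = 4.73e-05).

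By annotation, the readthrough genes with coding transcripts and those with non-coding ones had like levels, with median TPM of 1.44 (66 genes) and 1.13 (51 genes). In 786-M1A, 17 of 44 tested coding genes were higher and 8 lower, and 9 of 41 non-coding genes were higher and 9 lower, against 35.7% and 34.7% of all genes. In OS-LM1 the counts were 17 and 10 of 46, and 6 and 11 of 38, against 36.4% and 37.1%. The difference between both classes was not tested.

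Genes that act on readthrough were also examined. Cleavage and polyadenylation factors end transcription at the poly(A) site, and nonsense-mediated decay factors remove transcripts with early stop codons. Of 28 genes of 3′ end processing, 11 were higher and 10 lower with shPAX8 in 786-M1A (median log2 fold change −0.02), where 35.7% and 34.7% of all genes were, and 12 and 10 in OS-LM1 (0.09), where 36.4% and 37.1% were. CSTF2, a subunit of the cleavage stimulation factor, fell by 1.80 in OS-LM1, and PHRF1, a partner of the RNA polymerase II tail, fell by 1.42 in 786-M1A. PAPOLG, a poly(A) polymerase, was the highest in 786-M1A, at 1.48. Between hairpins the counts were 11 and 7 in 786-M1A (24.2% and 22.9% of all genes) and 1 and 4 in OS-LM1 (12.4% and 16.7%). Between lines they were 8 and 7 in the controls (32% and 31% of all genes), with 11 and 9 dependent on line (29.9% and 28.8%). Of 14 nonsense-mediated decay genes, to be read against the same shares of all genes, 5 were higher and 4 lower with shPAX8 in 786-M1A and 4 and 6 in OS-LM1, with UPF3B falling by 1.55 in OS-LM1. Hairpins differed for 4 and 2 of them in 786-M1A and for 0 and 2 in OS-LM1, controls of the lines for 7 and 3, and the response depended on line for 2 and 4. Neither list moved in one direction with shPAX8.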

How the data were processed

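RNA-seq was analysed in 24 libraries, 4 for each of 3 constructs in 2 lines. The labels give poly(A) RNA, a stranded mRNA library kit, Bowtie2, RSEM and build hg38 (GRCh38), without versions, whereas the study's methods name another kit maker. The authors deposited, per library and gene, expected counts estimated by RSEM and TPM values. The effective length equalled the length in all 24 files. The readthrough genes and the gene lists were chosen with earlier results of these data known.

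Expected counts were rounded and tested with edgeR 4.0.16 (R 4.3.3): filterByExpr, TMM scaling, robust quasi-likelihood test over 12 libraries per line or all 24, and Benjamini-Hochberg adjustment over all genes tested, called at an adjusted p under 0.05. CPM used TMM-scaled totals over 24 libraries. Locus shares came from TPM and were compared by two-sided exact permutation tests (scipy 1.17.1) with unadjusted p. The scripts were tested on simulated data. Named genes were those absent from a construct, the 5 largest called changes per comparison, the 10 most abundant and TMEM189-UBE2V1. Others, such as SPECC1L-ADORA2A and those above both parents, were chosen after their values were seen. Replicate numbers did not consistently pair libraries: deviations of libraries sharing a number correlated at −0.61 to 0.58 in 786-M1A and −0.35 to 0.25 in OS-LM1. Between the hairpins of 786-M1A all were positive, at 0.40, 0.30, 0.58 and 0.088 for numbers 1, 2, 3 and 4. Numbers 1 and 4 nevertheless correlated more with another number there (0.585 and 0.609). No libraries were duplicates (chi-square per gene 3.73 to 89.6). In 786-M1A, replicates 1 and 2 lay apart from replicates 3 and 4 within both hairpins. For shPAX8-1 the chi-square per gene was 14.1 between 1 and 2, 3.73 between 3 and 4 and 44.8 to 77.5 across. For shPAX8-2 it was 3.96, 11.7 and 14.9 to 19.2. The main fits held no term for this split, and its cause was not tested. Gene positions came from RefSeq and junctions from GENCODE v44. Alternatives were DESeq2 1.42.0, its size factors, no filter, a threshold of 0.01, single hairpins, a replicate block, left-out libraries and other denominators or cut-offs. SLX1A-SULT1A3 and SLX1B-SULT1A4 had identical values in all 24 libraries, as near-identical copies can.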

Additional observations from a re-analysis of the deposited data

Results flagged for a closer look

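Of 38 named readthrough genes, the CPM of 186 groups of 4 libraries were checked for a library far from the other 3 (the 95% critical value of Dixon's test, which chance passes in about 1 of 20 groups), and 33 were found. In 25 of them the other 3 libraries were at 0. In 786-M1A these were, with sgNTC18, FPGT-TNNI3K (0.0584 CPM in replicate 4), HOXA10-HOXA9 (0.192 in replicate 3), RAB4B-EGLN2 (1.38 in replicate 3) and TSNAX-DISC1 (0.282 in replicate 1). With shPAX8-1 they were ARHGAP19-SLIT1 (0.727 in replicate 2), DYX1C1-CCPG1 (0.421 in replicate 2), INS-IGF2 (0.314 in replicate 1), NT5C1B-RDH14 (0.115 in replicate 2) and TNFSF12-TNFSF13 (0.525 in replicate 1). With shPAX8-2 they were ARHGAP19-SLIT1 (0.156 in replicate 2), DYX1C1-CCPG1 (0.622 in replicate 3) and TNFSF12-TNFSF13 (0.0406 in replicate 3).

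In OS-LM1, the sgNTC18 libraries above 0 alone in their group were those of FAM47E-STBD1 (0.247 in replicate 2), HOXA10-HOXA9 (1.29 in replicate 4), KLRC4-KLRK1 (0.228 in replicate 2), MIA-RAB4B (0.109 in replicate 3) and SAA2-SAA4 (0.0548 in replicate 3). Those with shPAX8-1 were C8orf44-SGK3 (2.67 in replicate 3), MINOS1-NBL1 (7.88 in replicate 3), PPT2-EGFL8 (0.225 in replicate 2), RAB4B-EGLN2 (3.29 in replicate 1) and SEPT5-GP1BB (0.457 in replicate 3). With shPAX8-2 they were ARHGAP19-SLIT1 (0.523 in replicate 3), LY75-CD302 (0.123 in replicate 1) and MIA-RAB4B (0.157 in replicate 4). Elsewhere the others were above 0: TGIF2-C20orf24 was at 9.73 CPM in replicate 1 of the OS-LM1 controls against 3.44 to 4.39, TNFSF12-TNFSF13 at 6.80 in the same library against 3.43 to 3.51, FPGT-TNNI3K at 0.165 in replicate 2 of that group against 0.0840 to 0.0973, MSH5-SAPCD1 at 2.27 in replicate 1 of OS-LM1 shPAX8-2 against 0.819 to 0.931, SEPT5-GP1BB at 1.74 in replicate 4 of the 786-M1A controls against 0.227 to 0.354, and FPGT-TNNI3K at 1.37 in replicate 4 of 786-M1A shPAX8-2 against 1.24 to 1.26. MINOS1-NBL1 was at 17.6 in replicate 3 of OS-LM1 shPAX8-2 against 0 to 0.599, and TSNAX-DISC1 was at 0 in replicate 2 of 786-M1A shPAX8-1 against 0.895 to 1.02.

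The response to shPAX8 differed between lines, by edgeR's test of the difference itself, for 18 of the 31 named genes tested. Over all genes tested, it was higher in OS-LM1 for 29.9% and lower for 28.8%. The named genes include the 5 with the largest called changes in this same comparison, so the count describes them and supports nothing. The log2 fold change in OS-LM1 minus that in 786-M1A was 2.09 for BLOC1S1-RDH5, 4.19 for DYX1C1-CCPG1, 3.66 for FAM47E-STBD1, 4.04 for NT5C1B-RDH14, 1.44 for RPL17-C18orf32, 4.50 for SAA2-SAA4, 1.67 for TGIF2-C20orf24 and 0.87 for TMEM256-PLSCR3. It was −7.62 for CORO7-PAM16, −5.26 for FPGT-TNNI3K, −8.90 for MIA-RAB4B, −5.68 for MINOS1-NBL1, −1.38 for MSH5-SAPCD1, −6.40 for PPT2-EGFL8, −7.23 for RAB4B-EGLN2, −0.72 for SLMO2-ATP5E, −2.46 for STX16-NPEPL1 and −1.31 for TMED7-TICAM2. Where a group was at 0, as for CORO7-PAM16 and MIA-RAB4B in the 786-M1A controls, the size depends on the prior count. Without replicate 3 of the OS-LM1 controls, the sole library of that group with the gene, MIA-RAB4B lost its call (−6.18). RAB4B-EGLN2 lost it under 13 of 30 alternatives (largest adjusted p = 0.173 by edgeR, with shPAX8-1 alone), among them the removal of replicate 1, 2 or 4 of the 786-M1A controls, of replicate 3 or 4 of shPAX8-1 or replicate 1 or 2 of shPAX8-2 in that line, and of replicate 3 or 4 of the controls or replicate 3 of shPAX8-2 in OS-LM1. PPT2-EGFL8 lost it with shPAX8-1 alone (−4.45, adjusted p = 0.0649) and by DESeq2 (−5.91, adjusted p = 0.0637).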

How the results depend on the processing

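Of 96 recounted totals under another setting, 81 stayed within 1.5 times the reported count, and so did 208 of 216 with 1 library left out. Of 30 named fold changes, 20 were called under every alternative, 10 lost the call under at least 1 and 0 reversed. At an adjusted p under 0.01, hairpins differed for 3 higher and 3 lower genes in 786-M1A and 2 and 3 in OS-LM1, and 11 responded more in OS-LM1, as did 11 with shPAX8-2 alone. Absence from sgNTC18 held for 4 genes if 10 counts were asked for and for 3 if 4 or more libraries were, and absence from shPAX8 for 4 at 1 count, 1 at 10 counts and 0 in 4 or more libraries. Against the second-named parent alone, shares differed for 5 genes between hairpins in 786-M1A, 6 in OS-LM1 and 8 for shPAX8 in OS-LM1, and against the first-named alone for 7 between hairpins in OS-LM1. The hairpin difference in the TMEM189-UBE2V1 share in OS-LM1 reversed to 0.521 percentage points with TMEM189 alone (exact permutation p = 0.914), and with expected counts it was −3.05 (p = 0.0571). The causes were not tested.

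Leaving out libraries gave 25 to 29 higher and 15 to 20 lower in 786-M1A, 21 to 27 and 21 to 27 in OS-LM1, 6 to 13 and 5 to 17 between hairpins in 786-M1A, 3 to 7 and 6 to 9 in OS-LM1, 13 to 18 and 16 to 21 between lines, and 15 to 19 and 22 to 27 dependent on line. Absence ranged from 6 to 10 and 1 to 3, the lowest without replicate 2 of the OS-LM1 controls, and shares from 16 to 19 in 786-M1A and 11 to 16 in OS-LM1. Share tests of 4 against 3 libraries cannot pass the threshold and were not run. The percentages of all genes called without a library are not set beside these counts.

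With replicate number as a block, counts were 29 higher and 16 lower in 786-M1A, 23 and 24 in OS-LM1, 10 and 9 and 6 and 6 between hairpins, 17 and 17 between lines and 17 and 22 dependent on line. The pairing check above found that the numbers do not consistently pair the libraries, although they correlated positively between the hairpins of 786-M1A. Under the block, CORO7-PAM16 in 786-M1A, C8orf44-SGK3 between hairpins in that line and the line dependence of RAB4B-EGLN2 (edgeR adjusted p = 0.0535) were not called. No other call among named genes changed. CORO7-PAM16 and C8orf44-SGK3 passed the filter on low counts in 786-M1A through shPAX8 libraries. No p is therefore given for them, and their calls support nothing. Scaling moved the median of all genes by at most 0.02. Depth limits the genes near 3 counts.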
